A study of Mus musculus with 2 samples.

Results

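The Zeb, Snail and Twist genes encode transcription factors that shape neural crest cells and the mesenchyme they form. The 6 genes examined here were the zinc finger and homeodomain genes *Zeb1* and *Zeb2*, the zinc finger genes *Snai1* and *Snai2*, and the basic helix-loop-helix genes *Twist1* and *Twist2*. A DLX2 CUT&Tag peak was assigned to such a gene when it lay inside the gene or within 100 kb of it, or when the gene was its nearest protein-coding gene. Under this rule 21 of 28061 peaks in replicate 1 and 59 of 62093 peaks in replicate 2 belonged to the 6 genes. A shared region is a stretch covered by a peak of each replicate, by at least 1 bp, and 5 of the 10921 shared regions belonged to the 6 genes. These 5 regions lay at 3 of the genes, 2 at *Zeb1*, 1 at *Zeb2* and 2 at *Twist2*, whereas *Snai1*, *Snai2* and *Twist1* had none.

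Both libraries came from maxillary process cells of wildtype C57BL/6 embryos at E12.5 and were made with the same anti-DLX2 antibody. They form 1 group of 2 replicates, numbered in the order of their sample records, and the sources used here do not say how the embryos were pooled. No control library, treated group or other genotype was analysed here. The values below thus describe called peaks in wildtype tissue, not established DLX2 binding sites, and include no test between groups. The lists hold no expression values, so the tissue label could not be checked against marker genes.

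Neural crest cells leave the neural tube by an epithelial-to-mesenchymal transition and migrate into the face, where they form most of the maxillary mesenchyme. SNAI1, SNAI2, ZEB1 and ZEB2 are repressors that bind E-box sequences and shut down epithelial genes such as the E-cadherin gene *Cdh1*. TWIST1 and TWIST2 pair with E proteins, and TWIST1 keeps cranial neural crest cells on a mesenchymal course. DLX2 is a homeodomain factor, a class whose members commonly recognise a TAATT core.

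The genes differed widely in size, which sets how much room each offered for peaks. *Zeb1* spanned 184 kb and *Zeb2* 134 kb, *Twist2* spanned 46.6 kb, and *Snai1*, *Snai2* and *Twist1* were between 2.16 and 4.62 kb long. The setting of each gene also differed. The nearest protein-coding gene on the higher-coordinate side of *Zeb2* was *Acvr2a*, 3697 kb away, whereas *Snai1* had *Rnf114* at 22.0 kb on its other side and *Ube2v1* at 64.8 kb.

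No peak of either replicate overlapped a promoter of these genes. RefSeq promoter windows, taken from 250 bases before to 50 bases after a start site on GRCm38.p6, were at hand for *Zeb2* (4 windows), *Snai1*, *Twist1* and *Twist2*; *Zeb1* and *Snai2* had none in the table. Of these 7 windows 0 held a peak of replicate 1 and 0 a peak of replicate 2. Across all 32815 promoter windows the shares were 0.792% in replicate 1 and 2.69% in replicate 2, so a promoter peak was rare at any gene. The closest approach was at *Twist2*, where a replicate 2 peak ended 474 bp before the window, and the nearest replicate 1 peak was 27.5 kb away. The windows of the other 3 genes were at least 9.85 kb from any peak. The 250 bases before the start site are shown for *Twist2*, as the promoter nearest to a peak, and for *Zeb2* and *Snai1*, whose windows held a motif that was searched. All 3 are written 5′ to 3′ on the strand of the gene, and capitals mark a motif.
Twist2, chr1:91801211-91801460, plus strand: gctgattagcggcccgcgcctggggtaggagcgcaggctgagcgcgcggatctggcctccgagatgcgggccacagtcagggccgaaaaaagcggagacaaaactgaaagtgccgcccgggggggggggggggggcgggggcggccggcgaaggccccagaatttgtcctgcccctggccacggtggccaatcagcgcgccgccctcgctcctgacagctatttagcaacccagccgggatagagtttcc
Zeb2, chr2:45117443-45117692, minus strand: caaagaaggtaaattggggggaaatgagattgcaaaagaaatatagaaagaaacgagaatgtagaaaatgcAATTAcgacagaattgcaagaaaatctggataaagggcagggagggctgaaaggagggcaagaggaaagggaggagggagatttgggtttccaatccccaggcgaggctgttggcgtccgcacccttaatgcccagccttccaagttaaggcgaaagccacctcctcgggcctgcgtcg
Snai1, chr2:167537945-167538194, plus strand: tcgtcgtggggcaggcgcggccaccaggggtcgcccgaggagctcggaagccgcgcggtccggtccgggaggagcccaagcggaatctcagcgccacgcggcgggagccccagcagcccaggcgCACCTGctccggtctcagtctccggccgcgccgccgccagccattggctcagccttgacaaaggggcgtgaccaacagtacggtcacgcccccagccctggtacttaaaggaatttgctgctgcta

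Both strands of the 250 bases were searched for 2 homeodomain motifs, the core TAATT and a longer form that contains it, TAATTA. They were also searched for 3 E-boxes. The first was CAGGTG, to which Snail and Zeb proteins bind. The second was CATATG, a form bound by many helix-loop-helix dimers. The third, which shares its outer bases with the others, was CAGATG. The *Zeb2* sequence shown held 1 TAATT, read as AATTA on this strand, beginning 179 bases before the start site, and a second of the 4 *Zeb2* windows also held 1. TAATT was present in 8215 of the 32815 promoter windows. The *Snai1* sequence held 1 CAGGTG, read as CACCTG and beginning 126 bases before the start site. CAGGTG was present in 17.2% of all windows. None of the 5 motifs was found in the *Twist1* or *Twist2* sequence. The longer homeodomain form was found in none of the 7 member windows and in 4.85% of all windows. The second and the third E-box were also found in none of the 7, and in 3.47% and 14.5% of all windows. GC content was 68.8% for *Twist2*, 70.0% for *Snai1*, 62.4% for *Twist1* and between 49.6 and 57.6% for *Zeb2*, against a median of 52.4% over all windows.

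The numbers of peaks differed among the 6 genes and between the replicates. *Twist2* had 4 peaks in replicate 1 and 19 in replicate 2. *Zeb1* had 9 and 13, *Zeb2* had 5 and 12, and *Snai1* had 3 and 13, in the same order. *Twist1* had 0 peaks in replicate 1 and 2 in replicate 2, and *Snai2* had 0 in both. Replicate 2 thus held more peaks than replicate 1 at each of the 5 genes with a peak. Over the 6 genes replicate 2 had 2.81 times as many peaks as replicate 1, beside 2.21 times for the complete lists.

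**Figure D1:**
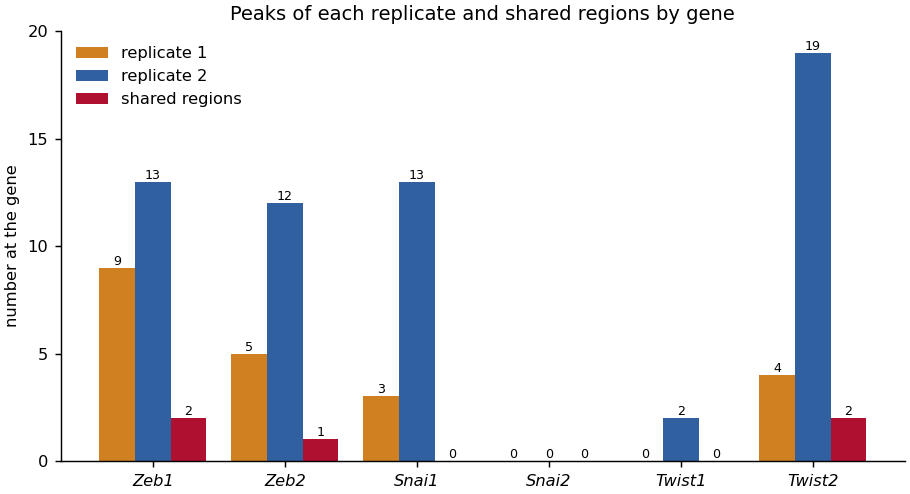
Number of peaks in replicate 1 (orange) and replicate 2 (blue) and of shared regions (red) assigned to each gene. *Twist2* has the most replicate 2 peaks, 19, and *Snai2* has no bar above 0.

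Most of the peaks rested on few fragments. The fold given by the peak caller compares the fragments at the summit with the local background of the same library. At the 6 genes it ranged from 3.25 to 6.71 in replicate 1, with a median of 4.41, and from 3.11 to 6.66 in replicate 2, with a median of 4.15. The medians over all peaks were 4.33 and 4.12, so peaks at these genes were of ordinary height for their libraries. The number of fragments at the summit, inferred from the fold and the −log10 p, had a median of 6 (range 4 to 11) in replicate 1 and of 9 (range 6 to 17) in replicate 2. A −log10 q of at least 5 was reached by 1 of 21 peaks in replicate 1, or 4.76%, and by 4 of 59 in replicate 2, or 6.78%. Over all peaks these shares were 10.2% and 11.1%.

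Of the replicate 1 peaks at the 6 genes, 5 of 21 met a replicate 2 peak, or 23.8% (95% Clopper-Pearson interval 8.22 to 47.2%). Of the replicate 2 peaks, 5 of 59 met a replicate 1 peak, or 8.47% (interval 2.81 to 18.7%). For the complete lists the shares were 38.9% and 17.2%, both higher than at the 6 genes. The intervals cover counting error only, and they treat peaks of 1 library at the same gene as independent. They are thus no test against the complete lists. Few of the unmet peaks were near misses. The 16 unmet replicate 1 peaks lay a median of 6.07 kb from the nearest replicate 2 peak, and 2 of them lay within 2 kb.

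The number of genes with a shared region was next set against all protein-coding genes. A shared region lay within 100 kb of 2 of the 6 genes, *Zeb1* and *Twist2*, and of 60.3% of 21757 protein-coding genes. With the nearest-gene part of the rule *Zeb2* was added, which gave 3 of 6 genes, against 61.5% of all. A shared region inside the gene was found for 0 of the 6 and for 14.6% of all. A replicate 1 peak lay within 100 kb of 3 of the 6 genes and of 83.1% of all, and a replicate 2 peak of 5 of the 6 and of 91.7% of all. With 6 genes these counts are a description, and none of the 5 shares was above that of all protein-coding genes.

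Gene length moved with this background. A shared region lay within 100 kb of 44.5% of the 4972 genes under 5 kb, the class of *Snai1*, *Snai2* and *Twist1*. The share was 63.7% for genes of 20 to 50 kb, the class of *Twist2*, and 71.9% for genes of 100 to 200 kb, the class of *Zeb1* and *Zeb2*. Thus the absence of a shared region within 100 kb was common in the class of the 3 short genes and less common in the class of *Zeb2*.

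**Figure D2:**
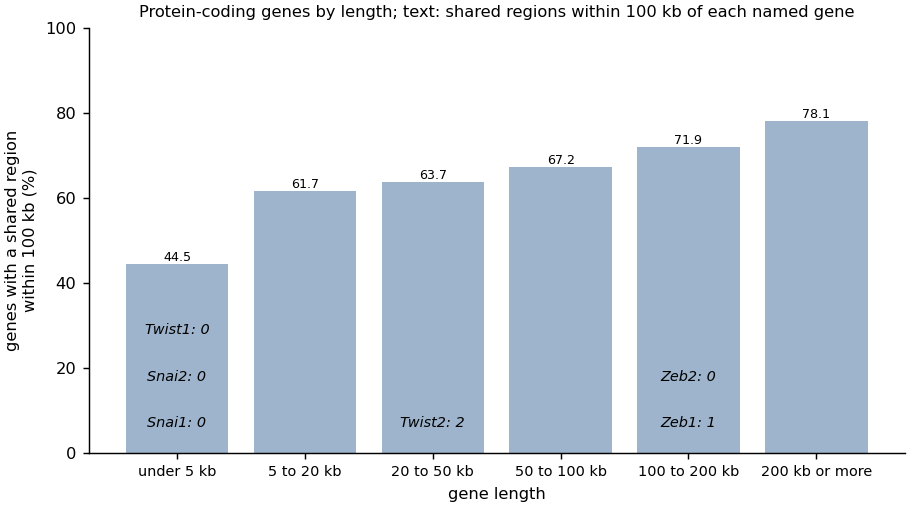
Percent of protein-coding genes with a shared region within 100 kb of the gene, by gene length. The text in the bars gives the number of such regions for each of the 6 genes, with 2 at *Twist2*, 1 at *Zeb1* and 0 at the other 4, and the percent rises from 44.5 for the shortest to 78.1 for the longest class.

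*Twist2*, also known as *Dermo1*, is active in the mesenchyme of dermis and face. It had the densest replicate 2 peaks of the 6 genes within its 100 kb window, at 73.0 per Mb, a density that exceeded that of 90.4% of protein-coding genes. For 5 of the 18 replicate 2 peaks in this window, however, *Hdac4* was the nearer coding gene. In replicate 1 the density was 16.2 per Mb, above 58.4% of genes. The high rank in replicate 2 was thus not matched in replicate 1. The 3 peaks inside the gene were all from replicate 2, including the tallest at the gene, chr1:91846542-91846791, with a fold of 5.53 and 17 fragments. Another replicate 2 peak, chr1:91800543-91800737, lay 0.724 kb before the start site with a fold of 4.15 and 8 fragments.

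The 2 shared regions of *Twist2* lay on either side of the gene. The first, chr1:91734340-91734525, was 66.9 kb before the start site, with folds of 4.71 and 4.18, given here and below for replicate 1 first, and a mean of 4.45 ± 0.379 (SD, n = 2). The second, chr1:91887745-91887937, was 39.7 kb beyond the far end of the gene, with folds of 4.51 and 4.88, a mean of 4.70 ± 0.265 (SD, n = 2). Both were of similar height in the replicates, and at 186 and 193 bp both were longer than the median shared region of 151 bp. They rested on 7 and 11 fragments for the first region and 6 and 10 for the second, in replicates 1 and 2. The summits of the replicates were 189 bp apart in the first region and 114 bp apart in the second, against a median of 63 bp over all shared regions.

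*Zeb2* is needed for the formation and migration of neural crest cells. It had no replicate 1 peak within 100 kb, where replicate 2 had 3, of which 2 lay inside the gene with folds of 4.77 and 4.15. Its other peaks were in the long gene-poor stretch between *Zeb2* and *Acvr2a*, on the side of the start site. In that stretch *Zeb2* was the nearest coding gene for all 5 replicate 1 peaks and for 9 replicate 2 peaks, at distances from 113 to 1487 kb.

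The shared region of *Zeb2* had the highest lower fold of the 5. It lay at chr2:45351184-45351329, 234 kb before the start site, with folds of 5.47 and 5.71 and a mean of 5.59 ± 0.169 (SD, n = 2). It rested on 7 fragments in replicate 1 and 11 in replicate 2, and the summits were 15 bp apart. This was the most even of the 5 regions between the replicates. A second replicate 2 peak with the same fold lay 239 bp from the replicate 1 peak of this region. Among all annotated genes the nearest was *Gm13479*, at 39.0 kb, so the link to *Zeb2* depended on counting coding genes only.

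*Zeb1* encodes a repressor of epithelial genes closely related to ZEB2. It had the most replicate 1 peaks of the 6 genes, and 2 of those 9 lay inside the gene, beside 1 of the 13 in replicate 2. None of these 3 met a peak of the other replicate. Both shared regions lay on the lower-coordinate side, one on each side of the edge of the 100 kb window. The nearer, chr18:5492552-5492681, was 98.6 kb from *Zeb1* and inside the long non-coding RNA gene *Gm10125*. Its folds were 5.05 and 4.38, a mean of 4.72 ± 0.471 (SD, n = 2), with 7 and 10 fragments.

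The farther region, chr18:5486865-5486950, was 104 kb from *Zeb1* and belonged to it as the nearest coding gene only. Its fold was 6.71 in replicate 1 but 3.25 in replicate 2, a mean of 4.98 ± 2.45 (SD, n = 2). It was the tallest replicate 1 peak at the 6 genes and one of the lowest in replicate 2. The fragments numbered 11 and 9, and the local background was 0.788 in replicate 1 and 2.08 in replicate 2. The summits were 7 bp apart, the closest of the 5 regions.

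**Figure D3:**
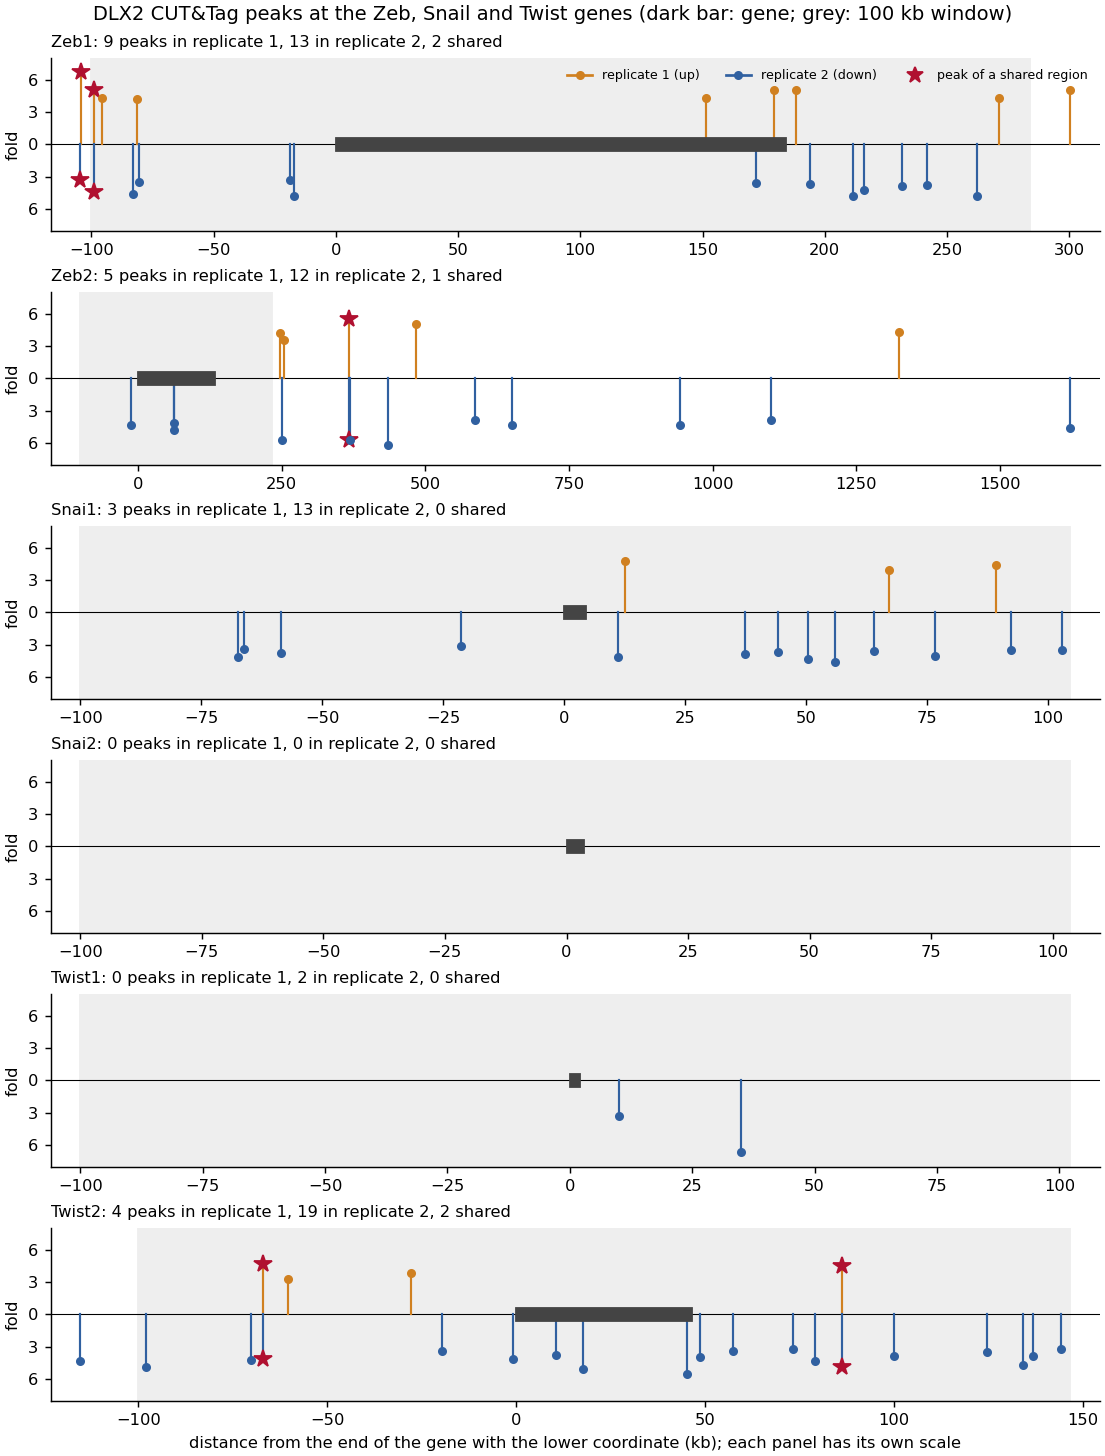
Peaks at each gene by distance from the end of the gene with the lower coordinate (kb, own scale in each panel), with fold upward for replicate 1 and downward for replicate 2; the dark bar is the gene, the grey area the 100 kb window and stars are peaks of shared regions. Stars appear outside the gene bodies of *Zeb1*, *Zeb2* and *Twist2*, and the *Snai2* panel is empty.

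*Snai1* encodes Snail, a direct repressor of *Cdh1*. Its 3 replicate 1 peaks and 13 replicate 2 peaks all lay within 100 kb, but another coding gene was nearer for 2 of the 3 and for 12 of the 13. The peaks for which *Snai1* was nearest were 1 in each replicate, and they did not overlap. The replicate 1 peak, chr2:167550719-167550813, had a fold of 4.79, and the replicate 2 peak, chr2:167549372-167549522, had a fold of 4.11. They lay 7.91 and 6.56 kb beyond the gene and 1197 bp from each other. The former was also the tallest replicate 1 peak at *Snai1*, and the tallest of replicate 2, chr2:167594010-167594346 with a fold of 4.64, was nearest to *Ube2v1*. The nearest shared region was 140 kb from *Snai1* and nearest to *Slc9a8*, with folds of 4.36 and 6.71.

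*Twist1*, whose loss disturbs the skull sutures and the facial mesenchyme, had no replicate 1 peak within 100 kb. Its 2 replicate 2 peaks lay beyond the end of the gene. The nearer, chr12:33967567-33967695, was 7.74 kb away with a fold of 3.33 and 6 fragments. The farther, chr12:33992377-33992809, was 32.5 kb away with a fold of 6.66 and 13 fragments, and its fold was the highest of replicate 2 at the 6 genes. This peak reached a −log10 q of 6.85, yet the nearest replicate 1 peak was 68939 bp from it. The nearest shared region was 145 kb from *Twist1*, on the other side of *Ferd3l*, with folds of 7.21 and 5.24.

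*Snai2* encodes Slug, which is prominent in migrating neural crest. No peak of either replicate lay within 100 kb of it, and none had it as the nearest coding gene. It sat in a peak-free stretch of 484 kb in replicate 1 and of 386 kb in replicate 2. The nearest peaks were 228 kb away in replicate 1 and 136 kb in replicate 2. Of all protein-coding genes 7.10% had no peak of either replicate within 100 kb, and of those under 5 kb 16.3% had none. The nearest shared region was 429 kb from *Snai2*, with folds of 4.21 and 7.06.

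The 5 shared regions were also placed among all shared regions by fold. The lower of the 2 folds had a median of 4.38 at these genes and of 4.51 over all shared regions. The *Zeb2* region stood highest, with a lower fold at or above that of 77.0% of shared regions. The *Twist2* regions stood at 34.7% and 50.1%. The first *Twist2* region rested on the same numbers of fragments as the *Zeb2* region, 7 in replicate 1 and 11 in replicate 2. Its local background was 0.697 in replicate 1 and 1.872 in replicate 2, against 0.462 and 1.101 at the *Zeb2* region. The folds of these 2 regions thus differed through the background alone, and not through the fragments at the summit. The *Zeb1* regions stood at 46.9% for the nearer and 2.66% for the farther. The *Zeb2* region, with a lower fold of 5.47, was thus above the upper quartile of all shared regions, 5.36. The other regions at these genes were below that quartile.

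**Figure D4:**
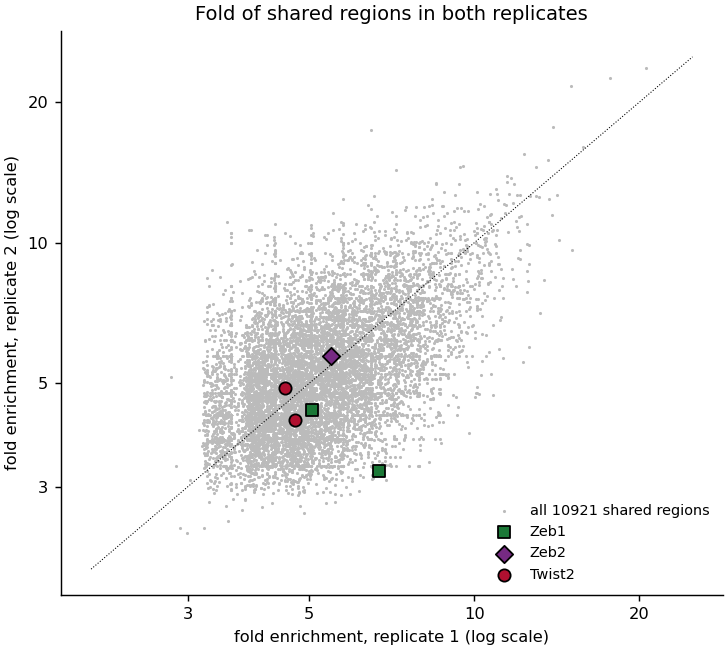
Fold in replicate 1 against fold in replicate 2, both on log scales, for all 10921 shared regions (grey) and for those at *Zeb1* (squares), *Zeb2* (diamond) and *Twist2* (circles); the dotted line marks equal folds. Of the 5 regions, 4 lie close to the line, and the farther *Zeb1* region lies at 6.71 and 3.25.

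The local background differed among the genes. The lowest background, expressed in fragments, was 0.387 in replicate 1 and 1.101 in replicate 2. In replicate 2 the background was over 1.5 times this floor at 11 of 13 *Snai1* peaks and 13 of 19 *Twist2* peaks. It was so at 1 of 13 *Zeb1* peaks, 0 of 12 *Zeb2* peaks and 0 of 2 *Twist1* peaks. The share of all peaks over this level is not given here. The median background over all replicate 2 peaks was 1.288. At *Snai1* and *Twist2* the medians were higher, 1.843 and 1.849. At *Zeb1* the median was lower, 1.139, as it was at *Zeb2* and *Twist1*, both 1.101. The replicate 2 density within 100 kb was 63.5 per Mb at *Snai1* and 73.0 per Mb at *Twist2*, against 31.2 at *Zeb1*, 8.98 at *Zeb2* and 9.89 at *Twist1*. Over all protein-coding genes the median was 33.8 per Mb. In replicate 1 the order was another. *Zeb1* was densest there, at 18.2 per Mb with 2 of 9 peaks over 1.5 times the floor, *Twist2* had 16.2 per Mb with 1 of 4, and *Snai1* had 14.7 per Mb with 3 of 3. *Zeb2* had 0 per Mb in replicate 1, with 0 of 5 peaks over that level. The median background over all replicate 1 peaks was 0.484. It was 0.797 at *Snai1* and 0.550 at *Twist2*, but 0.389 at *Zeb1* and 0.387 at *Zeb2*. *Snai1* and *Twist2* thus had both the highest densities and the most peaks over 1.5 times the floor in replicate 2. In replicate 1 *Snai1*, with 3 of 3, was the least dense of the 3 genes with a peak within 100 kb. The background counts take all assigned peaks, and the densities only those within 100 kb. The part of the background in these densities was not tested.

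The partners, targets and fellow regulators of these genes, in 5 lists of 39 genes, were counted by the 100 kb window alone. A shared region lay within 100 kb of 27 of them, or 69.2%, beside 60.3% of all protein-coding genes. More than 1 shared region lay within 100 kb of 35.3% of all protein-coding genes, so a count above 1 was common. The higher counts of single genes given below were not set against those of all genes. The related Snail superfamily genes *Snai3*, *Scrt1* and *Scrt2* each had a shared region, unlike *Snai1* and *Snai2*. The nearest one lay 92.0 kb from *Snai3*, close to the edge of the window, 18.2 kb from *Scrt2* and 0 kb from *Scrt1*. Of the helix-loop-helix partners and their inhibitors 5 of 7 had one. The E protein gene *Tcf3*, whose product pairs with TWIST1, had 5, the tallest with folds of 9.23 and 8.05. *Id1*, *Id3*, *Id4* and *Tcf12* also had at least 1, and *Tcf4* and *Id2* had none.

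Of the co-repressor genes 4 of 5 had a shared region. *Kdm1a*, a histone demethylase gene, had 6, the tallest with folds of 5.48 and 8.09, and *Ctbp1*, *Ctbp2* and *Hdac2* had 2 each. Of the epithelial and mesenchymal target genes 7 of 9 had one. The mesenchymal filament gene *Vim* had 5, the tallest with folds of 5.05 and 9.04, and the matrix gene *Fn1* had 3, the tallest with folds of 6.31 and 9.04. The epithelial genes *Cdh1* and *Epcam* had none, whereas the epithelial genes *Crb3*, *Ocln* and *Cldn1* had 3, 1 and 2 and the mesenchymal genes *Cdh2* and *Mmp2* had 2 each.

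Of the neural crest regulators 8 of 15 had a shared region. *Pax7* had 7, the most of the list. *Sox9* had 3, the tallest with folds of 9.83 and 7.28. *Msx1* had 3, *Ets1* and *Prrx2* had 2 each, and *Sox10*, *Tfap2b* and *Prrx1* had 1 each. *Foxd3*, *Tfap2a*, *Pax3*, *Sox8*, *Msx2*, *Hand1* and *Hand2* had none, and *Hand2*, like *Snai2*, had no peak of either replicate within 100 kb.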

How the data were processed

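The authors deposited 1 peak list per library, in mm10 coordinates. The study reports fewer peaks for each of its replicates, and fewer common peaks, than these lists hold. It does not state how its peak sets relate to the deposited lists, so the counts given here are not those of the study. Per the labels, reads were processed with Trim Galore 0.4.5, Bowtie 1.1.2 and MACS2 2.2.7; the methods of the study name another version of Trim Galore, and bowtie2. The labels describe sonicated chromatin, the methods transposase tagging. Caller settings are not given in the sources used here. The deposited values were, per peak, the fold enrichment (a ratio of summit to local background), the −log10 p, the −log10 q (down to a q of 0.1), a score of 10 times the −log10 q that was not used, and the summit position. The deposited lists give no read totals. Fragments at the summit were inferred by taking fold as fragments plus 1 over background plus 1 and p as a Poisson upper tail, which gave a whole number for 100% of peaks (tolerance 0.001). Peak numbers ran without a gap to 28061 and 62093.

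Gene extents came from RefSeq GRCm38.p6, the build of mm10; 388 genes listed before position 3000000 were left out, which left 21757 protein-coding genes. Only designs without a test were used. The rule for named items took every shared region of the 6 genes, for genes with none the nearest shared region and the tallest peaks, and 5 lists of related genes, counted within 100 kb. The members and lists were chosen with earlier results of these data known. Alternatives were a −log10 q or fold of at least 5, windows of 50 kb or the gene alone, overlap of 50% of each peak, summits within 150 bp, 1 replicate alone and other links to genes. The overlap count was tested on simulated data. Peak sequences were not analysed here. Scripts ran under Python 3.11.15 with scipy 1.17.1, pandas 2.3.3, numpy 2.4.6 and matplotlib 3.10.9.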

Additional observations from a re-analysis of the deposited data

How the results depend on the processing

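With 1 group of 2 libraries and no control library, no alternative separates occupied sites from background shared by both libraries, and no paired analysis was possible because there is 1 group. At a −log10 q of at least 5, 0 shared regions and 0 of the 6 genes remained (1 peak in replicate 1 and 4 in replicate 2), beside 14.9% of protein-coding genes within 100 kb. At a fold of at least 5, 1 shared region at 1 gene remained, that of *Zeb2*. Its mean fold was 5.59 (median over the 5 regions 4.72). Each replicate had 7 such peaks at the 6 genes. Of all genes 28.6% kept a shared region within 100 kb. That count by window alone would leave out this *Zeb2* region, which lay 234 kb away. Inside the genes there were 0 shared regions at 0 genes, 2 and 6 peaks, and 14.6% of all genes. These lower counts follow from the filters themselves. Overlap of 50% of each peak left 2 shared regions, 1 at *Zeb2* and 1 at *Twist2*, and 0 at *Zeb1*. Of all genes 44.9% kept a shared region within 100 kb, a window that the *Zeb2* region lay beyond. Linking each peak to the nearest gene of any kind left 1 shared region, at 1 gene, and 6 and 19 peaks, since non-coding genes lie nearer. The 100 kb window without the nearest-gene rule, chosen after the data were seen, left 3 shared regions. Either replicate alone gave 21 to 59 peaks at 4 to 5 genes. The shares of all genes, 83.1 to 91.7%, took peaks within 100 kb only. The replicate 1 peaks of *Zeb2* lay beyond that window. A window of 50 kb with the nearest-gene rule kept, or the nearest coding gene alone, left the count at 5, although 1 of the 5 regions lay within 50 kb of its gene, and summits within 150 bp left 4, without the first *Twist2* region. For single genes, 25 of 66 alternative counts differed by more than 1.5 times from those reported, 16 lower and 9 higher. All 9 higher counts came from 1 replicate alone, where peaks and not shared regions were counted. *Snai2* had 0 under every alternative run.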

Other observations

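*Twist1* and *Twist2* each have a histone deacetylase gene as their neighbour on the higher-coordinate side, *Hdac9* at 87.7 kb and *Hdac4* at 80.7 kb. These neighbours were looked at after the values of the Twist genes were seen. *Hdac9* spans 870 kb and held 13 replicate 1 peaks, 14 replicate 2 peaks and 5 shared regions. The tallest of these, chr12:34389503-34389766, reached 8.65-fold in replicate 1 and 8.09-fold in replicate 2 and lay 430 kb from *Twist1*, and the nearest to *Twist1* lay 367 kb away. *Hdac4* spans 267 kb and held 3 replicate 1 peaks, 11 replicate 2 peaks and 0 shared regions. Some of these replicate 2 peaks lay within 100 kb of *Twist2* and were counted there too.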
